A study of Mus musculus with 20 samples.

Results

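The 40 genes described here encode proteins of the skeletal muscle sarcomere, of the membranes that release and take up its calcium, and of the muscle's energy supply. They were taken by name from a table of 24885 genes measured by RNA sequencing in mouse plantaris tendon, and all 40 names were found and passed the filter on low counts. All mice carried floxed alleles of the IGF1 receptor gene on both chromosomes (IGF1Rflox/flox). KO mice were ScxCreERT2+/+, with a tamoxifen-activated Cre recombinase under Scx, a transcription factor gene of tendon cells, and WT mice were ScxCreERT2-/-, without the recombinase. The 20 libraries fell into 5 groups of 4, which were KO and WT at day 7, KO and WT at day 14, and WT at day 0. The groups at day 7 and day 14 had tamoxifen and a growth stimulus for that time, and the day 0 group had neither, so that tamoxifen and stimulus cannot be told apart in a comparison with day 0. Tamoxifen is given per sample, whereas the stimulus was read from the series' design text, since the title tags for it are not spelled out. The labels name no KO group at day 0 and give no age. Whether the replicates came from different animals is not stated there, so each p-value reflects library-to-library spread, part of which could be technical.

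A sarcomere is the contractile unit of striated muscle. Actin-based thin filaments, anchored at Z-discs, slide along myosin-based thick filaments when calcium binds the troponin complex, which holds a calcium-binding (C), an inhibitory (I) and a tropomyosin-binding (T) subunit. Calcium leaves the sarcoplasmic reticulum through ryanodine receptors and is pumped back by SERCA pumps. Fast and slow fibres use different genes for many of these parts, and some of the slow troponin genes are also read in developing muscle. Tendon cells build no sarcomeres, whereas a tendon joins muscle fibres at its end. In a bulk library, fewer muscle cells and less muscle RNA per cell cannot be told apart.

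Each library held between 32.3 and 63.5 M counts. The tendon markers were read at a high level in every group, the lowest of the summed levels over 12 genes being 57672 to 71482 CPM (counts scaled to a common library total) in WT day 0 libraries. Scx itself lay at 557 to 1153 CPM in KO day 7 libraries and 44.8 to 57.1 CPM in WT day 7 libraries, and at 860.2 to 1958 CPM in KO day 14 and 70.3 to 142 CPM in WT day 14 libraries, so it separated the genotypes in every library. Igf1r, the targeted gene, lay at 48.99 to 55.02 CPM in KO day 7 and 46.05 to 50.8 CPM in WT day 7 libraries, and at 49.8 to 60.3 CPM in KO day 14 and 40.5 to 48.7 CPM in WT day 14 libraries. Since whole-gene counts were used, a loss of floxed exons was not checked.

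The 40 genes together took a large part of the tendon's RNA at day 0 and a much smaller one afterwards. Their share of all counts was 4.702, 2.85, 6.24 and 6.804% in the WT day 0 libraries, in the order of their replicate numbers. At day 7 the share was 0.771, 0.658, 1.07 and 1.56% in KO libraries and 0.283, 0.18, 0.0414 and 0.236% in WT libraries. At day 14 it was 1.12, 1.75, 0.178 and 2.64% in KO libraries and 1.61, 0.331, 0.537 and 2.398% in WT libraries. All day 7 and day 14 libraries thus lay below all day 0 libraries, every KO day 7 library lay above every WT day 7 library, and the genotypes overlapped at day 14. The mean share was 5.15 ± 1.77% in WT day 0 libraries (SD, n = 4 here and below). At day 7 it was 1.02 ± 0.405% in KO and 0.185 ± 0.105% in WT libraries, and at day 14 1.42 ± 1.04% in KO and 1.22 ± 0.965% in WT libraries. These shares are a description of chosen genes and were given no test. The genes that went against the rest were 4: Tnni1, Tnnt1, Tnnc1 and Igfn1 summed to 4.004 ± 2.04 CPM in WT day 0 libraries, to 134 ± 95.6 CPM in KO and 67.97 ± 39.5 CPM in WT day 7 libraries, and to 94.5 ± 48.9 CPM in KO and 96.4 ± 63.2 CPM in WT day 14 libraries.

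**Figure D1:**
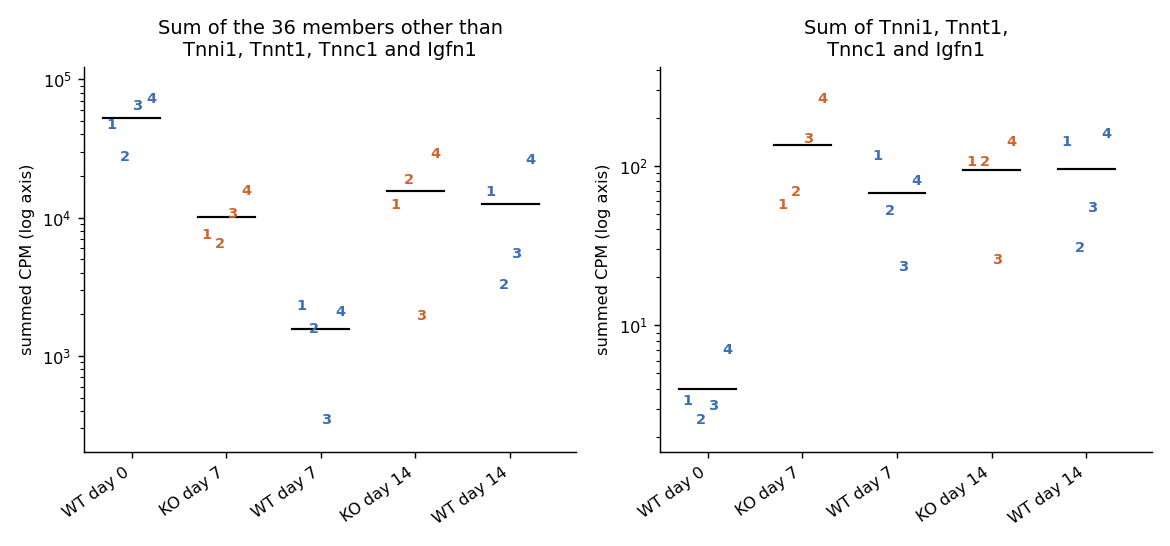
Summed CPM on a log axis in each library, for the 36 genes other than Tnni1, Tnnt1, Tnnc1 and Igfn1 (left) and for those 4 (right); digits are replicate numbers, black lines are means of 4 libraries, orange is KO and blue is WT. The sum of the 36 genes averaged 10089 CPM in KO and 1576 in WT day 7 libraries, beside 52564 in WT day 0 libraries. The 4 others were set apart because they rose in WT against day 0, so a higher sum in later WT libraries follows from that choice. Their sum was higher in every later library, KO included, than in any day 0 library.

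Within a group, the libraries differed as a whole rather than gene by gene. Replicate 3 of WT day 7 was the lowest of its group for 37 of the 40 genes, replicate 3 of KO day 14 for all 40, and replicate 2 of WT day 0 and of WT day 14 for 37 each. Replicate 4 was the highest for 36 genes in KO day 7, 38 in KO day 14, 34 in WT day 14 and 36 in WT day 0 libraries. The median gene's highest library stood at 2.59 times its lowest in WT day 0, 2.61 in KO day 7, 7.03 in WT day 7, 14.9 in KO day 14 and 6.39 in WT day 14. Taken per 1000 counts of the 40 genes, the same median ratio was 1.18 in WT day 0, 1.29 in KO day 7, 1.75 in WT day 7, 1.23 in KO day 14 and 1.63 in WT day 14. The 8 skeletal myosin heavy chain genes, which are not among the 40, summed to 3317, 4299, 441 and 8254 CPM in the KO day 14 libraries, with replicate 3 lowest there too. Without replicate 3, the mean share of the 40 genes was 1.84% in KO day 14 and 0.233% in WT day 7 libraries. What sets the libraries apart was not tested.

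**Figure D2:**
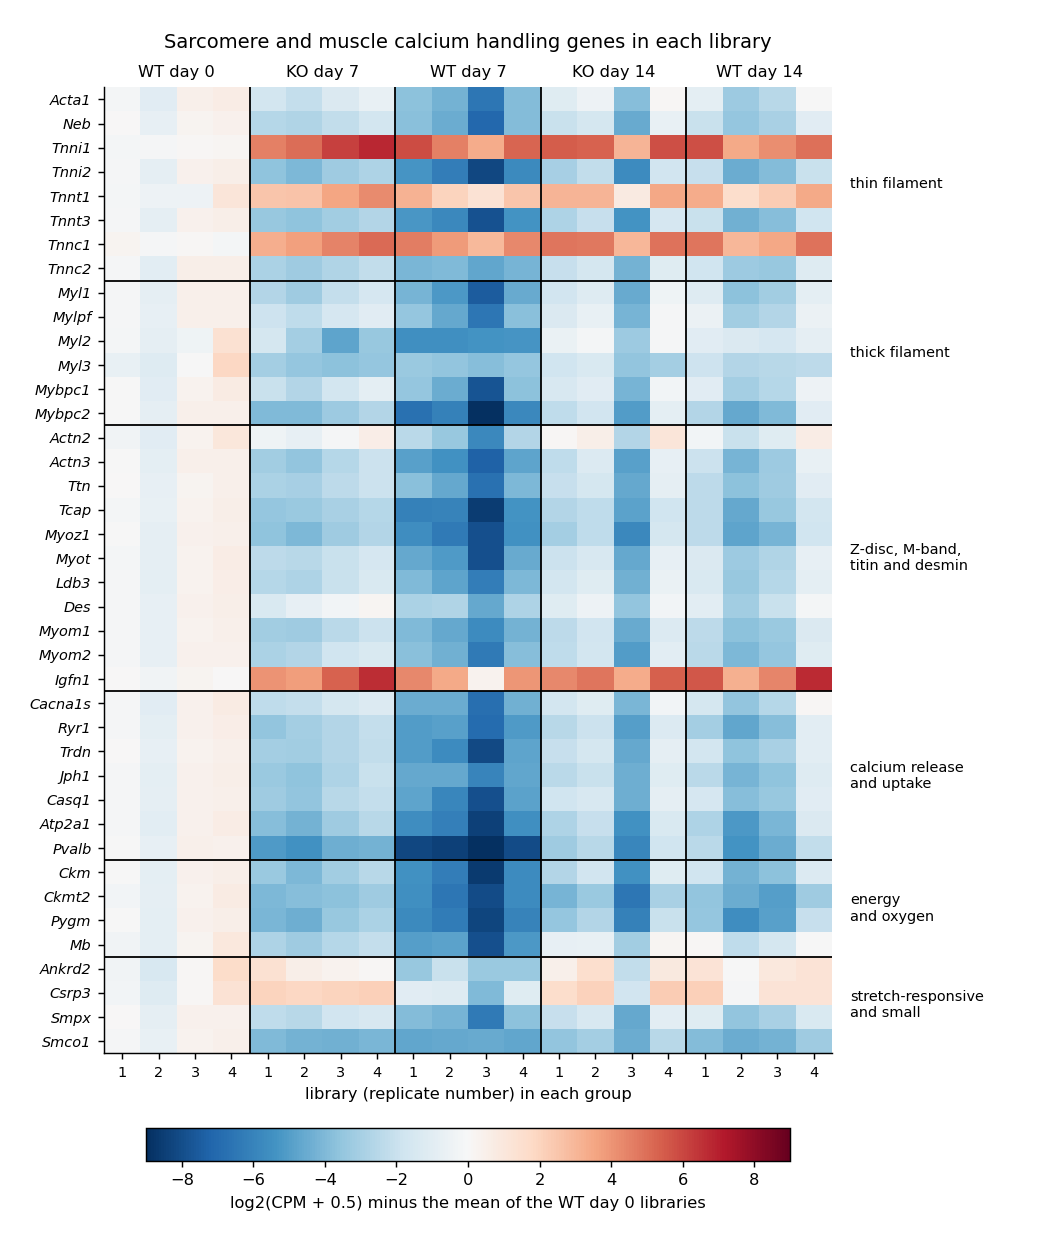
Level of each of the 40 genes in each of the 20 libraries, as log2(CPM + 0.5) minus the mean of the WT day 0 libraries, with genes in 6 role groups and libraries in their 5 groups. Columns change together within a group, most visibly replicate 3 of WT day 7 and of KO day 14, and the rows of Tnni1, Tnnt1, Tnnc1 and Igfn1 have the opposite colour to nearly all others.

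Over the first week of the growth stimulus, WT day 7 against WT day 0, 35 of the 40 genes fell and 4 rose (edgeR's quasi-likelihood test, Benjamini-Hochberg adjusted p below 0.05 over 18918 genes). Over all genes tested, 31.8% fell and 32.3% rose. The median change of the 40 was -5.18 on the log2 scale, against 0.022 over all genes. Smco1, Pvalb and Myl2 had the lowest values, and Tnni1, Igfn1 and Tnnc1 the highest. All 39 calls held in each of the 27 alternative analyses. Csrp3 did not pass in this comparison (adjusted p = 0.0532), with a range of adjusted p over the alternatives of 0.0211 to 0.213.

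At WT day 14 against WT day 0, 24 of the 40 fell and the same 4 rose, with a median change of -2.04. Over all genes 26.2% fell and 28% rose. Of these 28 calls 19 held in every alternative. Without replicate 3 of WT day 14 the number that fell was 15, and the share of all genes in that fit is not given here. Between the 2 later WT groups, WT day 14 against WT day 7, 35 genes rose and 0 fell, with a median change of 3.03, while 16% of all genes rose and 14.3% fell. The 5 that did not pass were Tnni1, Tnnc1, Tnnt1, Igfn1 and Myom2. Of the 35 calls 24 held in every alternative.

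The comparison of KO day 7 with WT day 7 sets the genotypes side by side after the first week. With no KO group at day 0, an earlier difference cannot be told apart from a changed response. KO mice alone carried the recombinase, so its presence and the targeting of Igf1r cannot be told apart either. In this comparison 30 of the 40 genes were higher in KO libraries and 0 lower. The median difference was 2.71 on the log2 scale. Over all genes 9.39% were higher and 5.42% lower. The 4 KO libraries lay above the 4 WT libraries without overlap for 35 genes, as they did for 14% of all genes. The genes with the largest differences were Myl2 (4.48 ± 0.96, where ± is the standard error, SE, as after every log2 change), Ankrd2 (4.13 ± 0.84) and Pvalb (3.88 ± 0.82). The 10 that did not pass included Tnni1, Tnnt1, Tnnc1 and Igfn1, which had risen in WT, as well as Myl3, Mybpc1, Neb, Ttn, Jph1 and Myom2. The count was 19 with no filter on low counts. It also moved with single libraries: it was 18, 7, 10 and 14 without replicates 1, 2, 3 and 4 of WT day 7, and 24, 23, 13 and 5 without replicates 1, 2, 3 and 4 of KO day 7. The shares of all genes in these fits are not given here, so a general shift cannot be told from one of the 40. Ankrd2, Csrp3, Myl2, Pvalb and Tcap passed in every alternative. Of these, Myl2 had few counts in WT day 7 libraries (9, 8, 11 and 11). The comparison of KO day 7 with WT day 7 shares its WT libraries with WT day 7 against WT day 0. It also shares them with WT day 14 against WT day 7, so these comparisons are not independent.

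**Figure D3:**
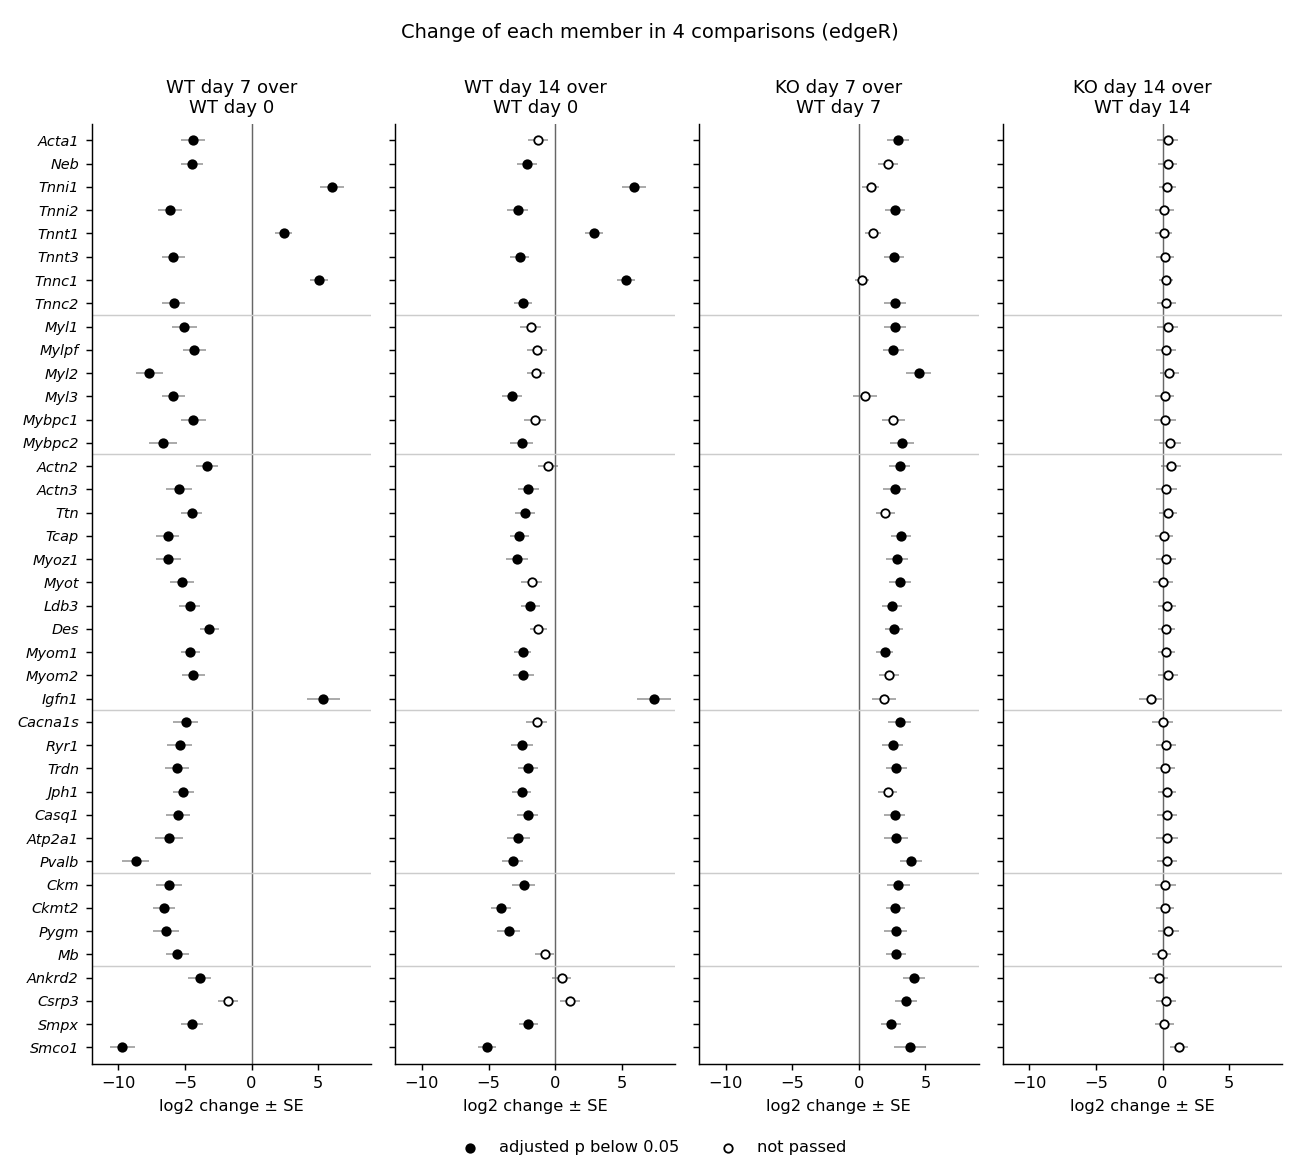
The log2 change of each of the 40 genes, with its standard error, in 4 comparisons; filled points passed at an adjusted p below 0.05 and open points did not, and grey lines part the 6 role groups. At day 7 against day 0 in WT, 35 points lie left of 0 and filled, at day 7 in KO over WT 30 lie right of 0 and filled, and at day 14 all 40 points of KO over WT are open.

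At day 14, KO and WT libraries could not be told apart in these genes, given the spread between libraries and 4 libraries a group. In KO day 14 against WT day 14, 0 of the 40 passed with edgeR, 0 had an unadjusted p below 0.05, and 0 passed with DESeq2, where the shares of all genes in either direction were 1.78%, 16.7% and 4.02% in the same order. Leaving out any library, replicate 3 of KO day 14 included, also left 0. The groups overlapped for all 40 genes, while 6.13% of all genes did not overlap, the median difference was 0.28, and single differences ran from -0.88 (Igfn1) to 1.25 (Smco1). The spread was wide: the difference of Acta1 was 0.38 ± 0.77 (SE). In KO day 14 against KO day 7, 1 gene of the 40 rose, Myl2 (2.26 ± 0.72, adjusted p = 0.0445), where 7.09% of all genes rose. The call of Myl2 was lost in 17 of the 27 alternatives. For the interaction, the KO over WT difference at day 14 minus that at day 7, the median of the 40 was -2.44. With edgeR 0 of the 40 passed, in a fit where 0% of all genes did. At an unadjusted p below 0.05 the number was 25 of the 40 and 10.8% of all genes. DESeq2 called 3 of the 40 and 0.644% of all genes lower in the interaction. The 3 were Ankrd2 at -4.41 (adjusted p = 0.00578), Myl2 at -3.95 (adjusted p = 0.0236) and Pvalb at -3.54 (adjusted p = 0.0475).

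The thin filament genes divided by isoform. Acta1 (ENSMUSG00000031972, chromosome 8, 123891769 to 123894751, minus strand, GRCm38 in GENCODE vM21, as all gene positions here), the skeletal actin of the filament itself, had 5736, 3199, 8768 and 10341 CPM in the WT day 0 libraries. At day 7 it had 2001, 1457, 2636 and 4101 CPM in KO libraries and 491, 336, 71.5 and 425 CPM in WT libraries. At day 14 it had 3056, 4694, 444 and 6781 CPM in KO and 3429, 662, 1158 and 6249 CPM in WT libraries. Every WT day 7 library was below every other library except replicate 3 of KO day 14, and the day 14 groups spanned much of the range. Acta1 fell by 4.41 ± 0.88 on the log2 scale in WT day 7 against WT day 0 (adjusted p = 0.000365) and was higher by 2.95 ± 0.82 in KO day 7 against WT day 7 (adjusted p = 0.0264). Neb, nebulin, a giant protein that lies along the filament, fell by 4.45 ± 0.82 and 2.11 ± 0.74 in WT at day 7 and day 14 against day 0, and its value in KO day 7 against WT day 7 was 2.19 ± 0.74 (adjusted p = 0.0583).

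Tnni1 (ENSMUSG00000026418, chromosome 1, 135779434 to 135810989, plus strand), the slow inhibitory troponin, was nearly unread at day 0, with 0.336, 0.374, 0.541 and 0.554 CPM in the WT libraries. At day 7 it had 21.2, 30.1, 67.1 and 105 CPM in KO and 53.95, 21.5, 9.26 and 35.3 CPM in WT libraries. At day 14 it had 41.6, 37.1, 7.25 and 51.4 CPM in KO and 52.7, 9.41, 16.4 and 29.5 CPM in WT libraries. Each later library stood far above all day 0 libraries, and KO and WT overlapped at both days. Its change was 6.04 ± 0.90 in WT day 7 and 5.89 ± 0.89 in WT day 14 against WT day 0 (adjusted p = 1.97e-05 and 3.97e-05), and its difference between KO and WT at day 7 was 0.90 ± 0.65 (adjusted p = 0.379). Tnni2 (ENSMUSG00000031097, chromosome 7, 142441808 to 142444410, plus strand), the fast inhibitory troponin, went the other way. It had 203, 149, 266 and 354 CPM in KO and 61.3, 32.2, 7.97 and 45.3 CPM in WT libraries at day 7, with 2287, 1427, 3226 and 3469.96 CPM in WT day 0 libraries. It fell by 6.15 ± 0.90 in WT day 7 against WT day 0 and was higher by 2.73 ± 0.77 in KO day 7 against WT day 7 (adjusted p = 0.0271).

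The other troponin genes divided in the same way. Tnnc1 (ENSMUSG00000091898, chromosome 14, 31208312 to 31211729, plus strand), the calcium-binding troponin of slow and cardiac muscle, had 8.65, 11.7, 20.1 and 31.9 CPM in KO and 22.9, 12.7, 6.699 and 18.1 CPM in WT libraries at day 7. It had 0.611, 0.358, 0.5 and 0.337 CPM in WT day 0 libraries, and rose by 5.09 ± 0.68 in WT day 7 against WT day 0. Tnnt1, the slow tropomyosin-binding troponin, rose by 2.40 ± 0.67 in the same comparison and by 2.88 ± 0.68 in WT day 14 against WT day 0. Tnnt3, its fast counterpart, fell by 5.87 ± 0.86 and 2.68 ± 0.74 there. Per kilobase of exon, Tnnt3 averaged 59.4 ± 32.2 CPM and Tnnt1 6.94 ± 3.696 CPM in WT day 7 libraries, whereas Tnnt3 averaged 3462 ± 1261 CPM and Tnnt1 1.32 ± 0.921 CPM in WT day 0 libraries. Tnnc2, the fast calcium-binding troponin, fell by 5.85 ± 0.86 in WT day 7 against WT day 0, but its count is uncertain. Of its exon bases 74% lie under the cell cycle gene Ube2c on the opposite strand, the strand setting of the counting is not given in the sources used here, and its level of 18.03 CPM per kilobase in WT day 0 libraries stood beside 1738 for Tnni2 and 3462 for Tnnt3.

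Among the thick filament genes all 6 fell in WT day 7 against WT day 0, with a median change of -5.46. Over all genes 31.8% fell there. In WT day 14 against WT day 0, 2 of 6 fell, near the share of 26.2% over all genes. Mylpf and Myl1, the regulatory and essential light chains of fast myosin, fell by 4.29 ± 0.86 and 5.05 ± 0.93 at day 7. Both were higher in KO day 7 against WT day 7, Mylpf by 2.60 ± 0.79 and Myl1 by 2.70 ± 0.83. Myl2 (ENSMUSG00000013936, chromosome 5, 122100951 to 122113472, plus strand), the regulatory light chain of slow and ventricular myosin, had 24.9, 15.7, 21.7 and 73.4 CPM in WT day 0 libraries. It had 9.103, 2.98, 0.557 and 2.24 CPM in KO and 0.13, 0.136, 0.194 and 0.209 CPM in WT libraries at day 7, and 18.8, 24.8, 2.47 and 25.8 CPM in KO and 13.8, 11.2, 9.37 and 15.9 CPM in WT libraries at day 14. The WT day 7 libraries lay close together near 0, and KO day 7 spread widely with replicate 1 highest. Myl2 counts at day 7 were 587, 120, 30 and 133 in KO and 9, 8, 11 and 11 in WT libraries. With so few in WT, the size of its changes at day 7 is uncertain. Myl2 fell by 7.66 ± 1.0 in WT day 7 against WT day 0 and was higher by 4.48 ± 0.96 in KO day 7 against WT day 7 (adjusted p = 0.00722).

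Myl3, the essential light chain of slow and ventricular myosin, differed from Myl2 at day 7. It fell by 5.88 ± 0.86 in WT day 7 against WT day 0. Its value in KO day 7 against WT day 7 was 0.46 ± 0.93 (adjusted p = 0.786). Its counts at day 7 were few, with 28, 8, 7 and 12 in KO and 19, 10, 3 and 11 in WT libraries. Mybpc2 and Mybpc1, the fast and slow myosin-binding proteins C that brace the thick filament, fell by 6.66 ± 1.06 and 4.35 ± 0.94 in WT day 7 against WT day 0. In KO day 7 against WT day 7 Mybpc2 was higher by 3.21 ± 0.90, and Mybpc1 had 2.57 ± 0.87 with an adjusted p of 0.0573.

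Of 11 genes of the Z-disc, the M-band, titin and desmin, 10 fell and 1 rose in WT day 7 against WT day 0. In KO day 7 against WT day 7, 8 were higher. In the same comparisons 31.8% of all genes fell, 32.3% rose and 9.39% were higher in KO. Tcap, telethonin, which caps titin at the Z-disc, fell by 6.28 ± 0.85 and was higher by 3.15 ± 0.74 in the KO comparison (adjusted p = 0.0117). Myoz1, a calcineurin-binding protein of fast fibre Z-discs, fell by 6.23 ± 0.96, Myot, myotilin, by 5.25 ± 0.90 and Ldb3, a Z-disc adaptor, by 4.64 ± 0.79 in WT day 7 against WT day 0. The Z-disc alpha-actinins differed in size of change, with Actn3 of fast fibres falling by 5.43 ± 0.96 and Actn2 by 3.32 ± 0.83. In WT day 14 against WT day 0 Actn3 fell by 2.01 ± 0.82 and Actn2 had -0.55 ± 0.76 (adjusted p = 0.565). Des, desmin, the intermediate filament that ties myofibrils together and that smooth muscle also makes, fell by 3.17 ± 0.71 in WT day 7 against WT day 0, the smallest of the 35 falls.

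Ttn, titin, the spring that spans from Z-disc to M-band, fell by 4.50 ± 0.81 and 2.25 ± 0.73 in WT at day 7 and day 14 against day 0. Myom1 and Myom2, myomesins of the M-band, fell by 4.59 ± 0.71 and 4.38 ± 0.86 in WT day 7 against WT day 0. Of these 3 only Myom1 passed in KO day 7 against WT day 7 (1.94 ± 0.63, adjusted p = 0.0494), beside 1.98 ± 0.72 for Ttn and 2.26 ± 0.79 for Myom2. Igfn1 (ENSMUSG00000051985, chromosome 1, 135953578 to 136006342, minus strand), an immunoglobulin-like and fibronectin type III domain protein of the Z-disc, had 0.214, 0.0488, 0.292 and 0.193 CPM in WT day 0 libraries. It had 10.5, 8.69, 26.2 and 67.9 CPM in KO and 12.99, 6.61, 0.354 and 10.3 CPM in WT libraries at day 7, and 12.95, 18.5, 6.54 and 27.7 CPM in KO and 32.7, 5.64, 13.8 and 69.6 CPM in WT libraries at day 14. Replicate 3 of WT day 7 was nearest the day 0 level, and all other later libraries were far above it. Its rise was 5.40 ± 1.26 in WT day 7 and 7.40 ± 1.29 in WT day 14 against WT day 0.

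All 7 genes of calcium release and uptake fell in WT day 7 against WT day 0, with a median change of -5.52. In KO day 7 against WT day 7, 6 of 7 were higher. In the same comparisons 31.8% of all genes fell and 9.39% were higher in KO. Pvalb (ENSMUSG00000005716, chromosome 15, 78191114 to 78206400, minus strand), parvalbumin, the calcium buffer of fast fibres, had 2070.1, 1258, 2885 and 2730.5 CPM in WT day 0 libraries. It had 60.9, 47.4, 100.4 and 113 CPM in KO and 6.75, 5.88, 1.803 and 7.36 CPM in WT libraries at day 7, and 227, 374, 36.7 and 618 CPM in KO and 394, 50.8, 95.1 and 453 CPM in WT libraries at day 14. The WT day 7 libraries were below all others, and no day 7 library of either genotype reached the day 0 range. Pvalb fell by 8.68 ± 1.01 in WT day 7 against WT day 0, rose by 5.51 ± 0.88 in WT day 14 against WT day 7 and still stood lower, by 3.17, in WT day 14 than in WT day 0. It was higher by 3.88 ± 0.82 in KO day 7 against WT day 7 (adjusted p = 0.00648).

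Atp2a1, the fast SERCA pump, fell by 6.19 ± 1.04 in WT day 7 against WT day 0 and was higher by 2.78 ± 0.89 in KO day 7 against WT day 7 (adjusted p = 0.0471). Of its exon bases 21.9% are shared with Rabep2 on the opposite strand, and the shares for Cacna1s and Ckm are 19.98% and 15.5%. Ryr1, the ryanodine receptor, and Cacna1s, the voltage sensor that opens it, fell by 5.39 ± 0.92 and 4.95 ± 0.93 in WT day 7 against WT day 0, and were higher by 2.53 ± 0.81 and 3.07 ± 0.85 in KO day 7 against WT day 7. Casq1, which stores calcium in the reticulum, and Trdn, triadin, which anchors it to the receptor, fell by 5.52 ± 0.92 and 5.61 ± 0.89. Jph1, junctophilin, which joins the reticulum to the T-tubule, fell by 5.10 ± 0.80, and was the gene of this group that did not pass in KO day 7 against WT day 7 (2.17 ± 0.71, adjusted p = 0.0516).

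The 4 genes of energy and oxygen supply all fell in WT day 7 against WT day 0, with a median of -6.31. All 4 were higher in KO day 7 against WT day 7, with a median of 2.77. In the same comparisons 31.8% of all genes fell and 9.39% were higher in KO. Ckm and Ckmt2, the cytosolic and mitochondrial creatine kinases of muscle, fell by 6.20 ± 1.01 and 6.54 ± 0.83 at day 7. Pygm, muscle glycogen phosphorylase, fell by 6.43 ± 1.0. In WT day 14 against WT day 0 these 3 fell by 2.36 ± 0.84, 4.06 ± 0.73 and 3.50 ± 0.87. Mb, myoglobin, of whose exon bases 31.9% are shared with genes on the opposite strand, fell by 5.56 ± 0.86 in WT day 7 against WT day 0, and in WT day 14 against WT day 0 it had -0.80 ± 0.71 (adjusted p = 0.361). Mb had 434, 83.9, 136 and 392 CPM in WT day 14 libraries and 320.4, 216, 490.4 and 788 CPM in WT day 0 libraries, and these overlapped.

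Csrp3 and Ankrd2, of the stretch-responsive and small genes, were the 2 of the 40 with a value above 0 in WT day 14 against WT day 0 that did not pass (1.09 ± 0.74 and 0.49 ± 0.71). Csrp3 (ENSMUSG00000030470, chromosome 7, 48830398 to 48848033, minus strand), the muscle LIM protein of stretch responses, had 28.3, 14.2, 36.3 and 81.1 CPM in WT day 0 libraries. It had 137, 122, 136 and 152 CPM in KO and 15.97, 14.3, 1.61 and 15.5 CPM in WT libraries at day 7, and 102, 138, 9.78 and 161 CPM in KO and 150.5, 30.5, 79.1 and 79.7 CPM in WT libraries at day 14. The KO day 7 libraries were all above the day 0 libraries, and the WT day 7 libraries were all below them except for an overlap at replicate 2 of WT day 0. Csrp3 was higher by 3.52 ± 0.81 in KO day 7 against WT day 7 (adjusted p = 0.0102). Ankrd2, a stretch-induced ankyrin repeat protein, had 26.5, 15.1, 12.8 and 11.01 CPM in KO day 7 and 0.491, 2.12, 0.548 and 0.57 CPM in WT day 7 libraries, beside 8.102, 3.37, 10.8 and 33.3 CPM in WT day 0 libraries. It fell by 3.89 ± 0.83 in WT day 7 against WT day 0 and was higher by 4.13 ± 0.84 in KO day 7 against WT day 7. Smpx, a small stretch-responsive muscle protein, fell by 4.46 ± 0.80 and was higher by 2.42 ± 0.74 in the same comparisons.

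Smco1 (ENSMUSG00000046345, chromosome 16, 32271468 to 32274781, plus strand), a membrane protein with a coiled coil, was nearly absent from WT day 7 libraries. Its counts were 20, 7, 7 and 14 in KO day 7 libraries, 0, 1, 2 and 0 in WT day 7 libraries and 376, 456, 731 and 690 in WT day 0 libraries. WT day 7 libraries thus held 3 counts in all, against 2253 in WT day 0 libraries, a ratio per unit of depth of 971 for WT day 0 over WT day 7, with an exact 95% counting interval of 332 to 4710.3. The ratio of KO day 7 over WT day 7 was 17.4, with an interval of 5.62 to 87.5. Such intervals cover counting error only. Its fitted changes of -9.70 in WT day 7 against WT day 0 and 3.84 in KO day 7 against WT day 7 depend on the prior count.

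The promoters of the 2 genes with a RefSeq promoter that rose most and of the 2 that fell most in WT day 7 against WT day 0 are shown, 250 bases up to the start site (RefSeq, GRCm38.p6, most upstream start listed, on the strand of the gene), with E-boxes (CANNTG, the site of myogenic bHLH factors), MEF2 motifs (in a strict and a wider form) and CArG boxes in capitals where present. They cover chr1:135799171-135799420 for Tnni1, chr1:136006343-136006592 for Igfn1, chr16:32271230-32271479 for Smco1 and chr15:78206401-78206650 for Pvalb.
Tnni1: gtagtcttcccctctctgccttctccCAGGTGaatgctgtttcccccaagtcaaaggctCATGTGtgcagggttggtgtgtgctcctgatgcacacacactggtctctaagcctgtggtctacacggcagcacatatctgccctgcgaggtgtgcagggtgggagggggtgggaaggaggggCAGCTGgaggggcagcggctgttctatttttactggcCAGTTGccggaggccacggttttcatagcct
Igfn1: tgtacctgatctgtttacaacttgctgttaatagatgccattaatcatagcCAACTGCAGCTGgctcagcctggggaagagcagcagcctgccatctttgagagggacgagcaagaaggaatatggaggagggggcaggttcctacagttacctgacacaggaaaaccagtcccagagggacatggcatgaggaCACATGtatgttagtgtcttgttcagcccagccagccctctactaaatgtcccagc
Smco1: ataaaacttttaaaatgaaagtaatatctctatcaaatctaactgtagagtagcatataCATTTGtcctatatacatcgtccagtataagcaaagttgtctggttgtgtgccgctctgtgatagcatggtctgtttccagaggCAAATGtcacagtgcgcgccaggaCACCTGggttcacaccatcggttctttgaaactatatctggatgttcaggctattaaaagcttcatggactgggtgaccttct
Pvalb: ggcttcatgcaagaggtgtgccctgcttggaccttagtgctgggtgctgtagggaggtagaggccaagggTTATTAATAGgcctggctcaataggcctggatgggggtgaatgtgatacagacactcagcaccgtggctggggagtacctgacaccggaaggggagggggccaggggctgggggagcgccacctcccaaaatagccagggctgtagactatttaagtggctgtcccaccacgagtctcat
Of the 40 genes 30 had a promoter in that table. In 300 bases from 250 before to 50 after the start, on both strands, an E-box was found in 86.7% of the 30 and in 72.1% of all 27025 promoters. A CArG box, the serum response factor motif, was found in 13.3% and 1.59%, a MEF2 motif in its strict form (CTA, 4 letters A or T, TAG) in 3.33% and 0.57%, and an MCAT motif (CATTCC) in 23.3% and 14.7%. The TATA box (TATAAA) was found in 13.3% and 14.2%. A wider MEF2 form, also allowing T as the first and A as the last letter, was added after the sequences were seen and was found in 6.67% and 3.29%. Tnni1 and Igfn1, which rose, and Smco1, which fell, all have E-boxes in this window, and the Pvalb window has a MEF2 motif of the wider form. The motifs were not tested against the changes.

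The ratio of a slow to a fast isoform of the same subunit was taken within each library, apart from how much RNA of both the library holds. The log2 ratio of Tnni1 to Tnni2 counts was -12.67, -11.87, -12.51 and -12.58 in WT day 0 libraries. At day 7 it was -3.26, -2.30, -1.99 and -1.75 in KO and -0.18, -0.58, 0.22 and -0.36 in WT libraries, and at day 14 -2.90, -3.80, -2.73 and -3.86 in KO and -3.46, -3.54, -3.28 and -4.40 in WT libraries. The ratio was highest in every WT day 7 library, lowest in every day 0 library, and lower in every KO day 7 library than in any WT day 7 library. The difference of the means was 12.18 for WT day 7 against WT day 0 and -2.10 for KO day 7 against WT day 7. Tnnt1 over Tnnt3 averaged -2.50 ± 0.60 in WT day 7 and -10.99 ± 0.69 in WT day 0 libraries, and Tnnc1 over Tnnc2 6.03 ± 0.72 and -4.89 ± 0.74 in the same groups. The KO day 7 minus WT day 7 difference was -1.83 for the T and -2.69 for the C subunit. The C ratio is uncertain in every comparison, since most exon bases of Tnnc2 lie under Ube2c. Tnnc2 had 20, 22, 3 and 14 counts in WT day 7 libraries.

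The ratios of the light chains showed other patterns. Myl2 over Mylpf averaged -8.0 ± 1.90 in KO day 7 and -8.91 ± 1.55 in WT day 7 libraries, and these overlapped. It averaged -6.15 ± 0.71 in WT day 0 libraries, which overlapped WT day 7. Its mean was thus lower in WT day 7 than in WT day 0, unlike the troponin ratios. Myl2 had few counts in WT day 7 libraries (9, 8, 11 and 11), so this ratio is uncertain there. Myl3 over Myl1 averaged -10.33 ± 1.12 in KO day 7 and -7.84 ± 0.54 in WT day 7 libraries, without overlap. It averaged -7.71 ± 0.97 in WT day 0 libraries. Myl3 had few counts at day 7, so this ratio is uncertain there. They were 28, 8, 7 and 12 in KO and 19, 10, 3 and 11 in WT libraries. Mybpc1 over Mybpc2 averaged 2.02 ± 0.79 in WT day 7 and -0.15 ± 0.21 in WT day 0 libraries. In KO day 7 libraries it averaged 1.55 ± 0.27, which overlapped WT day 7. Atp2a2, the slow SERCA pump that many non-muscle cells also make, over Atp2a1 had the order of the troponin ratios, averaging -0.81 ± 0.68 in KO day 7, 1.99 ± 1.40 in WT day 7 and -4.85 ± 0.72 in WT day 0 libraries, though Atp2a2 also reads other cells. The KO day 7 libraries lay below the WT day 7 libraries without overlap, with a difference of the means of -2.79. Of 42 two-sided exact permutation tests (7 pairs, 6 comparisons), 21 reached p = 0.0286, the smallest that 4 against 4 libraries allow, and the groups did not overlap there. After Benjamini-Hochberg adjustment over the 42 these stand at an adjusted p of 0.0571, so 0 of 42 passed.

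**Figure D4:**
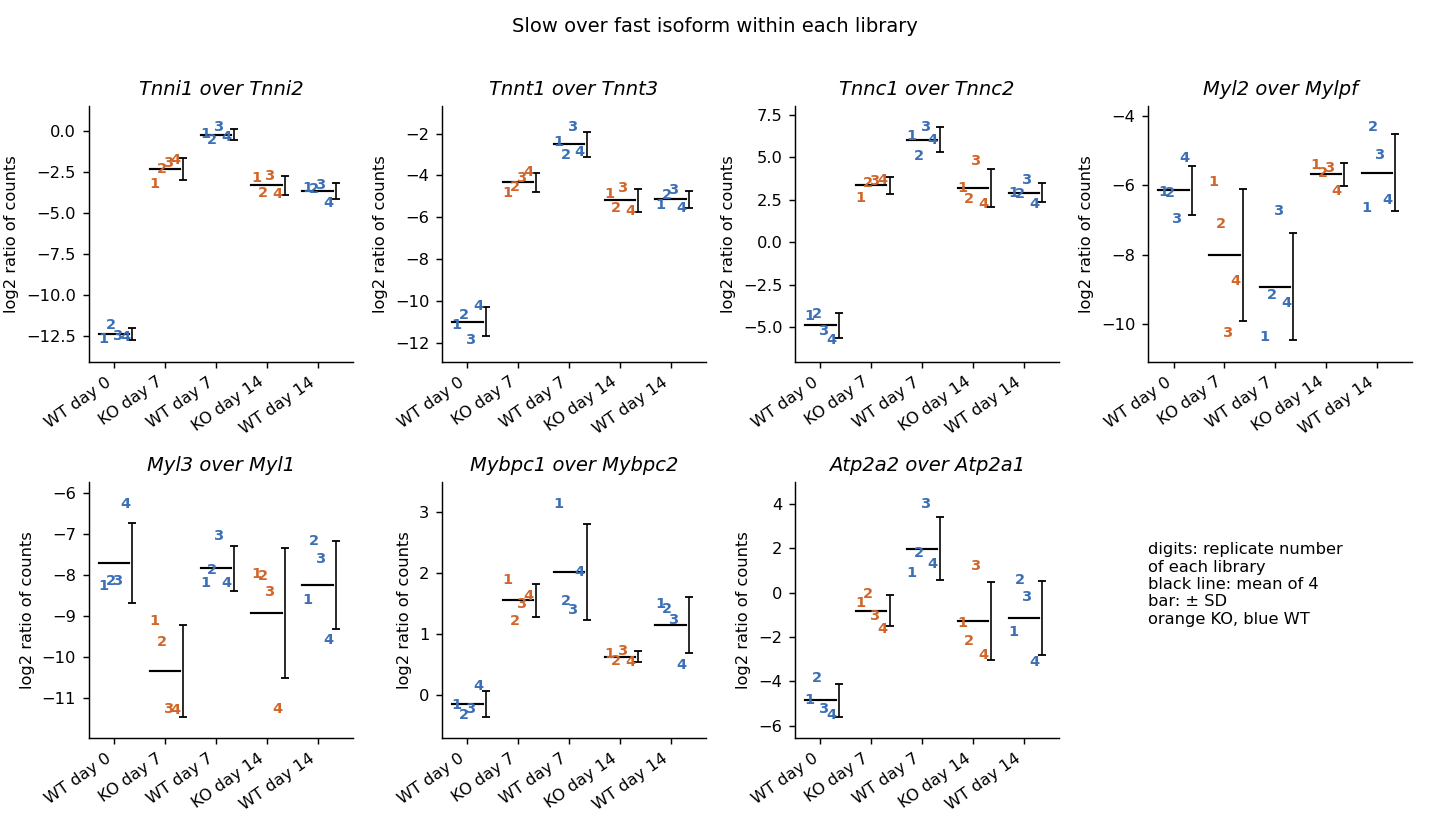
The log2 ratio of slow to fast isoform counts in each library for 7 pairs, with groups on the horizontal axis; digits are replicate numbers, black lines means of 4 libraries and bars ± SD, orange for KO and blue for WT. The 3 troponin ratios are lowest in WT day 0 and highest in WT day 7 libraries, with KO day 7 between. Myl3 over Myl1 has its lowest mean in KO day 7. The count of Tnnc2 is uncertain, Myl3 had few counts in both day 7 groups, and Myl2 had few in WT day 7.

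The makeup of the muscle RNA, given per 1000 counts of the 40 genes, varied less than its amount and differed between groups. Acta1 held 130.1 ± 11.7 of 1000 in WT day 0 libraries. It held 247 ± 17.5 in KO and 200.02 ± 6.96 in WT day 7 libraries, and 239 ± 10.1 in KO and 218 ± 16.7 in WT day 14 libraries. Pvalb held 43.3 ± 3.76 in WT day 0, 7.92 ± 0.98 in KO day 7 and 3.68 ± 0.879 in WT day 7 libraries. At day 14 Pvalb held 19.5 ± 1.34 in KO and 18.9 ± 4.600 in WT libraries, so it stood between day 0 and day 7. Pygm held 15.6 ± 1.22 in KO and 13.3 ± 2.88 in WT day 14 libraries, beside 40.03 ± 0.846 in WT day 0 libraries. Csrp3 held 14.7 ± 4.44 in KO day 7, 6.74 ± 1.88 in WT day 7 and 0.704 ± 0.281 in WT day 0 libraries. Des, which smooth muscle also makes, held 106 ± 24.7 in KO day 7, 119 ± 36.1 in WT day 7 and 29.9 ± 1.63 in WT day 0 libraries. Its part was largest, at 161, in replicate 3 of WT day 7, where the 40 genes held 0.0414% of all counts. How much of Des came from other cells was not tested. These parts add to a fixed whole, so a rise in 1 gene lowers others, and they were given no test.

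**Figure D5:**
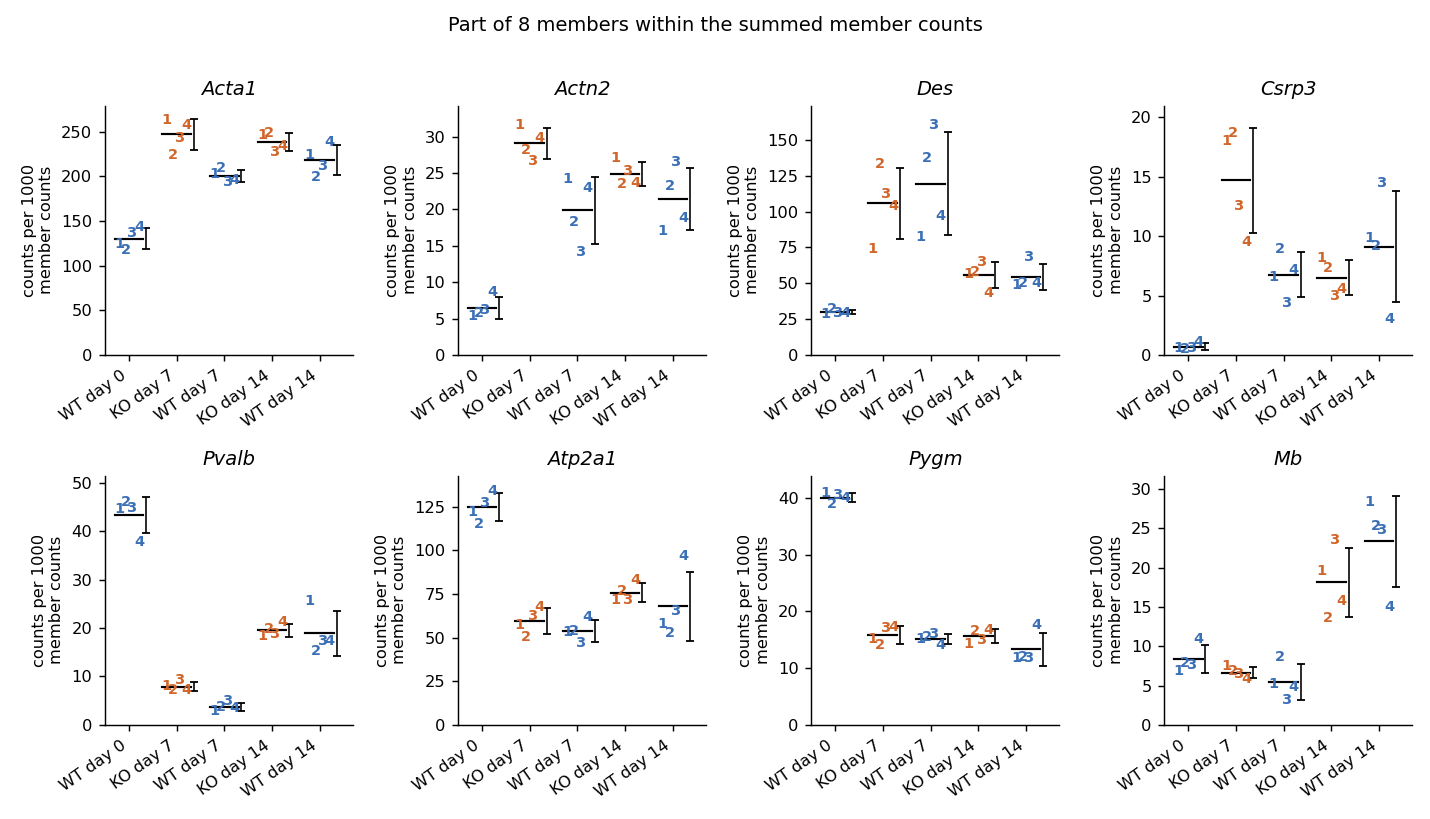
Counts of 8 genes per 1000 counts of all 40, in each library and group; digits are replicate numbers, black lines means of 4 and bars ± SD, orange for KO and blue for WT. Acta1, Actn2, Des and Csrp3 take a larger part at day 7 and day 14 than at day 0, Pvalb, Atp2a1 and Pygm a smaller one, and Mb a larger one at day 14.

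Other muscle genes were taken from lists drawn up to stand beside the 40. Over all genes 31.8% fell and 32.3% rose in WT day 7 against WT day 0. In KO day 7 against WT day 7, 9.39% of all genes were higher and 5.42% lower. Of 34 other sarcomere genes 27 fell and 5 rose in WT day 7 against WT day 0, and 18 were higher and 2 lower in KO day 7 against WT day 7. Among them Myoz3 fell by 7.11 and Cryab, a small heat shock protein of the Z-disc, by 3.10, while Tpm3, a tropomyosin of slow fibres and of non-muscle cells, rose by 1.03. Of 17 other calcium handling genes 14 fell and 1 rose in WT day 7 against WT day 0, among them Mrln, a peptide regulator of SERCA (-4.85), and Jph2 (-4.43), and 5 were higher in KO day 7 against WT day 7. All 16 muscle energy genes fell in WT day 7 against WT day 0, with Cox8b at -6.32, and 7 were higher in KO day 7 against WT day 7, with Cox8b at 2.34. Of 8 myosin heavy chains 4 fell and 2 rose in WT day 7 against WT day 0, and Myh2 and Myh1 were higher in KO day 7 against WT day 7 (4.30 and 3.32). Myh4, of the fastest fibres, stood at -6.67 in WT day 7 and -6.59 in WT day 14 against WT day 0.

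Genes of immature muscle were mostly higher in WT day 7 than in WT day 0 libraries. Some of the 18 such genes are also among the other sarcomere genes and heavy chains. In WT day 7 against WT day 0, 11 of the 18 rose and 1 fell. Over all genes 32.3% rose and 31.8% fell. Tnnt2, the troponin T of cardiac and embryonic muscle, rose by 6.28, Mymk, which drives myoblast fusion, by 6.96, and Chrng, the fetal subunit of the acetylcholine receptor, by 6.58. In KO day 7 against WT day 7, 0 of 18 passed with edgeR, and in KO day 14 against KO day 7, 5 of 18 fell, where 8.57% of all genes did, among them Chrng (-3.02) and Mymx (-2.24). The summed level of the list was 792 ± 630.4 CPM in KO day 7, 439 ± 215 CPM in WT day 7 and 104 ± 24.2 CPM in WT day 0 libraries.

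Markers of the other cell types gave the following values beside the day 7 difference. Of 10 smooth muscle markers, Des included, 3 were higher and 1 lower in KO day 7 against WT day 7. Over all genes 9.39% were higher and 5.42% lower. The summed level of the 10 markers was 1501 to 2544 CPM in KO and 938 to 1565 CPM in WT libraries. Without Des, 1 of the 40 genes and 1 of the 3, the other 9 summed to 848 to 939 CPM in KO and 728 to 1365 CPM in WT libraries, which overlapped. In WT day 7 against WT day 0, 4 of these 10 rose and 4 fell, where 32.3% of all genes rose and 31.8% fell. Of 12 tendon cell markers 5 were higher and 0 lower in KO day 7 against WT day 7. The 5 include Scx (3.87), the gene under which the recombinase was placed. The 12 summed to 132894 to 156965 CPM in KO and 83579 to 98479 CPM in WT libraries. In WT day 7 against WT day 0, 3 of the 12 tendon cell markers rose and 4 fell, beside the same shares of all genes. The myosin heavy chains summed to 1677 to 4134 CPM in KO day 7 and 103 to 716 CPM in WT day 7 libraries, and thus separated the groups as the 40 genes did. The part of these cells in the differences was not tested.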

How the data were processed

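RNA of mouse plantaris tendon was sequenced in 20 libraries, and groups and replicate numbers were taken from the sample titles. The authors deposited raw counts per gene, whole numbers for 24885 genes, with no gene summing to fewer than 21 counts. Per the submitters' processing notes, FastQC and STAR were used with the mm10 genome. Neither the counting tool, its strand setting nor the annotation is given in the sources used here.

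Genes were filtered with edgeR's filterByExpr, which left 18918, scaled with TMM factors and fitted with 1 mean per group over all 20 libraries (edgeR 4.0.16 in R 4.3.3, robust quasi-likelihood), and p-values were adjusted over all 18918 genes after Benjamini-Hochberg. CPM values are scaled with the same factors. A gene that antisense transcription overlaps, or that has a close copy, is uncertain. Isoform ratios used counts plus 0.5 and exact permutation tests in SciPy 1.17.1 (Python 3.11.15). The edgeR fit was tested on simulated counts for WT day 7 against WT day 0 only. Of 100 genes changed by 1 on the log2 scale 67% were recovered, and of 100 changed by 2 91%. There were 17 false calls among the unchanged genes. No library was a duplicate of another of its group (smallest chi-square per degree of freedom 15.4 over 30 pairs). Pairs from different groups were not checked. Exon lengths and overlaps are from GENCODE vM21.

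The 40 genes, the 7 lists of other genes and the tests were chosen with earlier results of these data known. The text names all 40, from each other list up to 4 genes with the smallest p in a comparison, and Igf1r and Scx. Ube2c and Rabep2 are named for their exon overlap. Alternatives were scaling by RLE or upper quartile, no filter, a minimum of 1 CPM in 4 libraries, DESeq2 1.42.0, fits restricted to the groups compared, a replicate block, and the omission of each library in turn. The authors' own edgeR table was not used.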

Additional observations from a re-analysis of the deposited data

Results flagged for a closer look

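A library was singled out where its gap to the nearest of its group, divided by the group's range on the log2 CPM scale, exceeded Dixon's 95% critical value for 4 libraries. Of 200 sets of 1 gene and 1 group 14 did so, where about 1 in 20, or 10, would by chance if the sets were independent, which genes of one library are not.

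Replicate 3 of WT day 7 stood apart on the low side for 8 genes. Its level, set beside the range of the other 3 libraries, was 1.61 CPM beside 14.3 to 16.0 (gap ratio 0.952) for Csrp3, 2.35 CPM beside 13.7 to 15.0 (gap ratio 0.95) for Cacna1s, 1.77 CPM beside 4.87 to 5.19 (gap ratio 0.939) for Jph1, 59.4 CPM beside 200.1 to 221 (gap ratio 0.924) for Des. For Ryr1 it was 13.1 CPM beside 49.1 to 56.6 (gap ratio 0.903), for Mb 1.17 CPM beside 10.6 to 13.9 (gap ratio 0.888), for Myot 0.937 CPM beside 9.81 to 14.9 (gap ratio 0.847) and for Pvalb 1.80 CPM beside 5.88 to 7.36 (gap ratio 0.84). Without this library 10 of the 40 genes passed in KO day 7 against WT day 7, against 30 with it. The share of all genes without this library is not given here.

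Replicate 3 of KO day 14 stood apart on the low side for 4 genes, with 6.95 CPM beside 24.8 to 27.6 (gap ratio 0.922) for Tnnc1, 2.47 CPM beside 18.8 to 25.8 (gap ratio 0.865) for Myl2, 9.78 CPM beside 102 to 161 (gap ratio 0.836) for Csrp3 and 7.25 CPM beside 37.1 to 51.4 (gap ratio 0.834) for Tnni1. Replicate 2 of WT day 7 was high for Ankrd2, at 2.12 CPM beside 0.491 to 0.57 (gap ratio 0.9), and replicate 4 of WT day 0 was high for Tnnt1, at 5.95 CPM beside 1.77 to 2.17 (gap ratio 0.833).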

How the results depend on the processing

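In WT day 7 against WT day 0 the 4 rises and 35 falls moved at most to 36 falls, and no called gene changed sign in any alternative. The number of genes higher in KO day 7 against WT day 7 was 30, 19 with no filter on low counts, and 5 to 35 when 1 library was left out. The number lower in WT day 14 against WT day 0 was 24, and 15 to 28 with 1 library left out. In KO day 14 against KO day 7 it was 1 higher, 0 with no filter and 0 with a fit to the compared groups alone, 4 with DESeq2, and 0 to 5 with 1 library left out. DESeq2 called 3 genes lower in the interaction, where edgeR called 0. The cause of these shifts was not tested. Over single genes and comparisons, called or not, DESeq2 left 263 outcomes as they were and added 17 calls, and leaving out a library left 5320 outcomes as they were, ended 248 calls and added 32. Values that turned sign had no call before or after, such as 78 of KO day 14 against WT day 14. Ratios could not be tested with a library left out, since 3 against 4 allow no p below 0.0571.

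The replicate numbers are shared between groups in the titles, but not every pair of libraries with the same number deviated together over all genes tested (40 pairs, r from -0.165 to 0.272, median 0.047, 14 above 0.1, and 7 of 20 libraries closest to their own number). Over the 40 genes r ran from -0.671 to 0.648 with a median of -0.021 and 19 above 0.1. Replicate 4 was the highest for most of the 40 in every group but WT day 7. With the replicate number as a block, 35 genes were higher in KO day 7 against WT day 7, 36 fell in WT day 7 and 28 in WT day 14 against WT day 0, 35 rose in WT day 14 against WT day 7, and 0 passed in KO day 14 against WT day 14. The shares of all genes called with the block are not given here. Genes with few counts, such as Smco1 with 3 in WT day 7 libraries, limit what the depth can show.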
